A study of Mus with 6 samples.

Results

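The genes followed here are 9 that decide whether a cell leaves G1, the phase before DNA synthesis. They are the D-type cyclin genes Ccnd2 and Ccnd3, the cyclin-dependent kinase (CDK) genes Cdk4, Cdk6 and Cdk2, the CDK inhibitor genes Cdkn1a, Cdkn1b and Cdkn2c, and Rb1, whose product the kinases act on. They were picked by symbol, and all 9 were found among the 10995 genes listed. These genes and the further gene lists below were chosen with earlier results of these data known, so the shares called in them are no independent test. The libraries came from wild-type mouse spleen CD4+ T cells that were naive at the start, that is, had not met antigen. All cells had 3 days of activation by antibodies to the T cell receptor complex (anti-CD3, 5 μg/mL) and to the costimulatory receptor CD28 (anti-CD28, 2 μg/mL), together with the T cell growth factor IL-2 (100 U/mL). In addition, the cells of 3 RNA-Seq libraries had received anti–VEGF-B (1 μg/mL), an antibody to the growth factor VEGF-B, and those of 3 had received normal goat IgG (1 μg/mL) as control. The labels do not say whether the replicates came from separate mice or cultures, so that p-values measure only the spread between these samples, which may be technical.

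A resting T cell sits outside the cell cycle, and stimulation makes it produce D-type cyclins, which bind and switch on Cdk4 and Cdk6. These kinases phosphorylate the retinoblastoma protein, which until then holds back the E2F transcription factors and with them the genes of DNA synthesis, and Cdk2 with cyclin E or cyclin A completes this step. The inhibitor encoded by Cdkn2c binds Cdk4 and Cdk6 themselves, whereas those of Cdkn1a and Cdkn1b bind complexes of a cyclin and a kinase. In lymphocytes Ccnd2 and Ccnd3 are the usual D-type cyclins, and Cdkn1b is known as a brake that is removed when T cells divide. Much of this control acts on the proteins, which were not measured here.

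Levels are given as FPKM, a unit that scales the fragments of a gene by transcript length and by the mapped fragments of the library. The depth of each library is unknown, and the FPKM listed summed to between 260058 and 276622. Tests were run with limma on log2(FPKM + 1) for 8816 genes, those averaging 1 FPKM or more, with Benjamini-Hochberg adjustment, and an adjusted p under 0.05 made a call. A log2 fold change is anti–VEGF-B minus IgG on that scale and is smaller than the true change where FPKM are low. Most genes were lower with anti–VEGF-B: 71.2% had a log2 fold change below 0, the median of all genes was -0.15, and 2099 genes were called lower and 429 higher. Median centring brought that median to 0.049 with 807 lower and 1365 higher, quantile normalization to 0.0077 with 913 and 880, and cyclic loess normalization to 0.0019 with 938 and 852, so the log2 fold changes of the 9 genes are also given relative to that median (relative to all genes). All 11 T cell markers were listed, with a summed level of 673 to 740 FPKM with anti–VEGF-B and 716 to 861 with IgG. The 3 called lower, where 23.8% of all genes were, were Il2ra (log2 fold change -0.97, adjusted p = 0.00665 from limma), Cd3e (-0.51, 0.0197) and Cd5 (-0.38, 0.0343). Il2ra averaged 117 FPKM with IgG and 58.3 FPKM with anti–VEGF-B. The other 8 were not called, among them Cd4 at 64.0 to 74.6 FPKM. Of the CD8 genes, Cd8a was at 0 to 0.182 FPKM and Cd8b1 at 2.27 to 4.51 FPKM. The B cell gene Cd79b was at 0.665 to 1.34 FPKM. Pecam1, the only 1 of 5 endothelial markers analysed, was at 5.87 to 7.37 FPKM, and this gene alone does not show that endothelial cells were present. The summed level of the 4 myeloid markers listed was 11.3 to 13.0 FPKM with anti–VEGF-B and 12.6 to 27.7 FPKM with IgG, the highest being IgG replicate 3, in which Lyz2 was at 16.4 FPKM against 3.26 to 4.19 in the others. Whether other cells were present and had a part in the results was not tested.

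Of the 9 genes, 2 were called lower with anti–VEGF-B, Ccnd2 and Cdk6, and none higher. Among all genes tested, 28.7% were called, 23.8% lower and 4.87% higher, so that the share of the 9 genes called was close to that of all genes. At an unadjusted p under 0.05, limma gave the same counts for the 9 genes, 2 lower and 0 higher. The share of all genes at that limit was not counted. It was at least 23.8% lower and 4.87% higher, since an adjusted p is never below the unadjusted p. When an unadjusted p under 0.05 was joined with a log2 fold change beyond 0.5 in either direction, Ccnd2 alone passed, where 11.3% of all genes were lower and 1.40% higher. The log2 fold change was below 0 for 8 of the 9 genes, with a median of -0.17, or -0.021 relative to all genes. The median of the 9 genes was 0.028 after median centring. In bulk RNA, fewer cells that use a gene and less of its RNA per cell cannot be told apart.

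**Figure D1:**
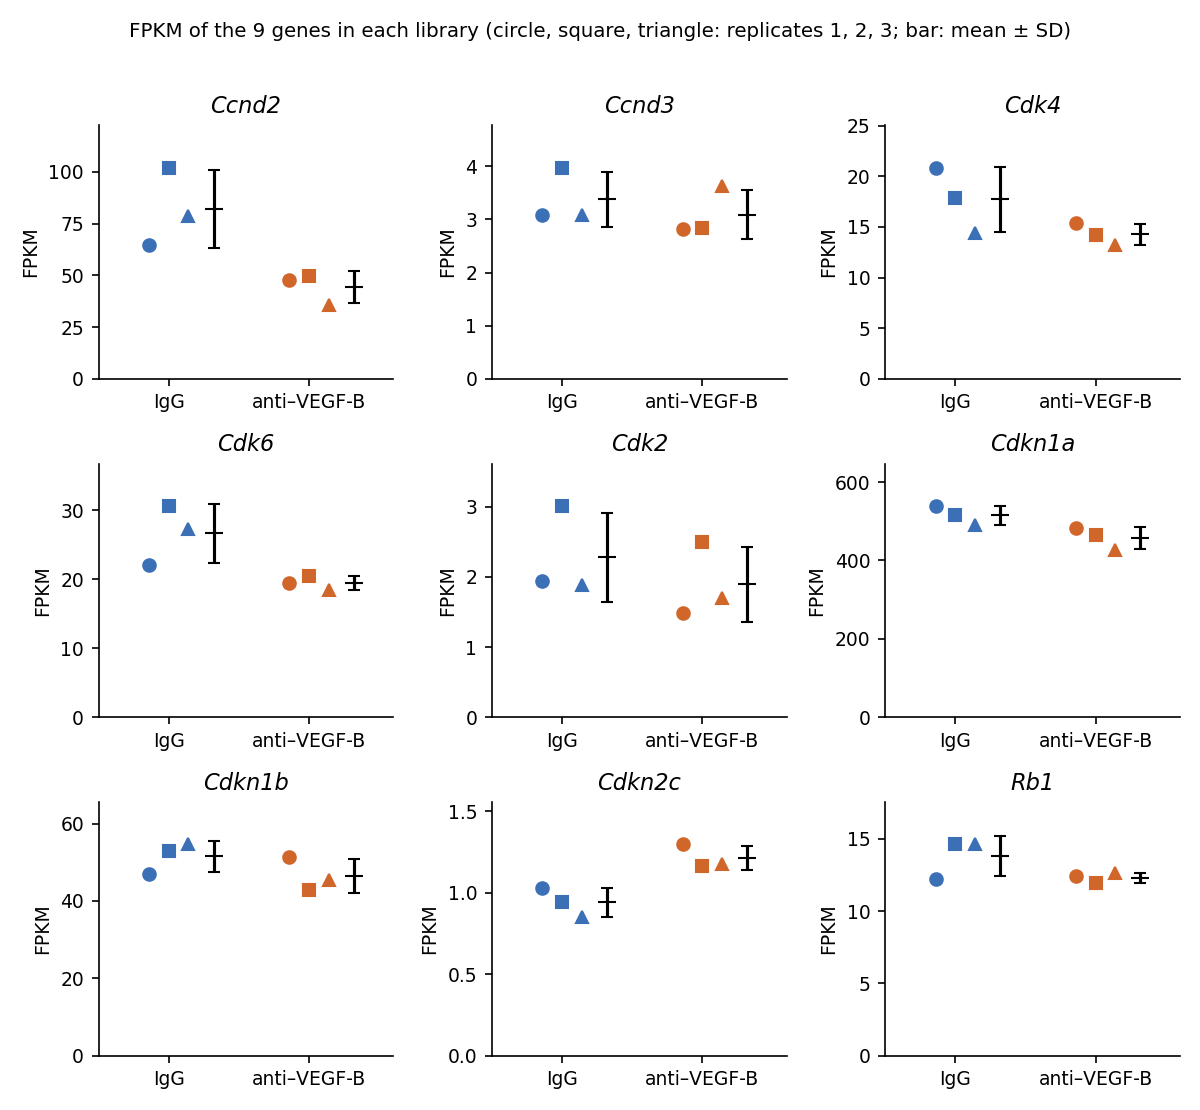
FPKM (vertical axes, each from 0) of the 9 genes in each of the 3 IgG and 3 anti–VEGF-B libraries, with circles, squares and triangles for replicates 1, 2 and 3 and a black bar for the mean ± SD. The groups lay apart for Ccnd2, Cdk6 and Cdkn1a, lower with anti–VEGF-B, and for Cdkn2c, higher, while the groups of the other 5 genes overlapped.

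The D-type cyclin gene Ccnd2 (chromosome 6 of GRCm38, 127125162 to 127152193, minus strand) had the largest change of the 9. It stood at 64.8, 102 and 78.8 FPKM in IgG replicates 1, 2 and 3 and at 47.9, 49.5 and 35.7 FPKM in anti–VEGF-B replicates 1, 2 and 3. The groups did not overlap, with IgG replicate 2 the highest and anti–VEGF-B replicate 3 the lowest. The mean fell from 81.9 ± 18.8 to 44.4 ± 7.53 FPKM (SD, n = 3 each), that is, to 54.2% of the IgG mean. The log2 fold change was -0.86 (limma, standard error 0.169, 95% interval -1.24 to -0.48, adjusted p = 0.0101). Against the median of all genes it was -0.71. Under every scaling between libraries Ccnd2 remained called, with log2 fold changes from -0.88 to -0.66, and without any 1 library they ran from -1.01 to -0.69. Without moderating the variance over genes the call was lost (limma, adjusted p = 0.0983), and the alternatives ranged from 0.00758 to this value. With no moderation, 0.0681% of all genes were called lower. RefSeq lists a long noncoding RNA gene, 9330179D12Rik, over 2805 bases of the Ccnd2 locus, and the library kit was a stranded one, but whether reads were counted by strand was not given in the sources used here.

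Ccnd3 (chromosome 17, 47505051 to 47599691, plus strand), the other D-type cyclin gene listed, was far lower in level and did not pass the test. Its values were 3.08, 3.97 and 3.08 FPKM with IgG and 2.81, 2.83 and 3.62 FPKM with anti–VEGF-B, and the groups overlapped. Its log2 fold change was -0.099 (95% interval -0.38 to 0.18, adjusted p = 0.569 from limma), 0.053 relative to all genes, and median centring made it 0.10. Within each library, Ccnd2 had 21.1, 25.7 and 25.6 times the FPKM of Ccnd3 in the IgG replicates and 17.0, 17.5 and 9.86 times in the anti–VEGF-B replicates. The log2 ratio was thus lower in every anti–VEGF-B library, by a difference of -0.74 (two-sided exact permutation test, p = 0.1, and 0.25 when adjusted over 5 pairs of genes). With 3 libraries in each group no smaller p can be reached. Without anti–VEGF-B replicate 3, the difference was -0.48. A ratio within a library does not depend on a factor that scales the whole library. RefSeq lists the gene Bysl, which was at 1.11 to 2.08 FPKM, over 361 bases of the Ccnd3 locus, and the long noncoding RNA gene Gm41590 over 7217 bases. Ccnd1 was not analysed here.

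**Figure D2:**
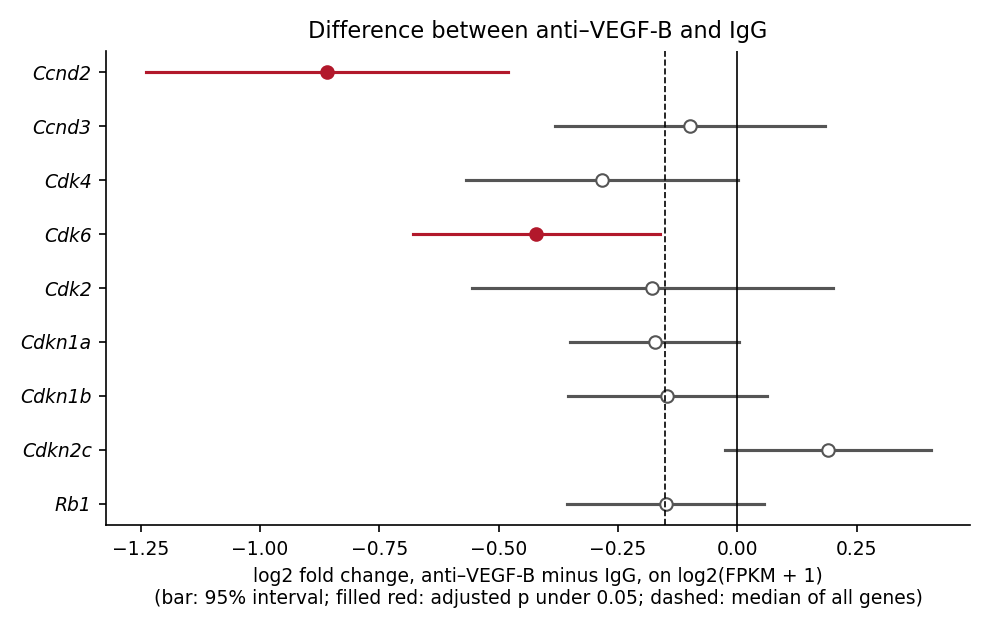
Log2 fold change (anti–VEGF-B minus IgG on log2(FPKM + 1), horizontal axis) of each of the 9 genes with its 95% interval from limma. Filled red points mark the calls, Ccnd2 at -0.86 and Cdk6 at -0.42, and the dashed line marks the median of all genes at -0.15, which lies within the intervals of Ccnd3, Cdk4, Cdk2, Cdkn1a, Cdkn1b and Rb1.

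Among the kinases, Cdk6 (chromosome 5, 3341485 to 3531008, plus strand), a partner of the D-type cyclins, was called lower. It was at 22.1, 30.6 and 27.3 FPKM in the IgG libraries and at 19.5, 20.5 and 18.5 FPKM in the anti–VEGF-B libraries. The groups lay apart by a narrow margin, since IgG replicate 1 was close to anti–VEGF-B replicate 2. The mean was 26.7 ± 4.31 FPKM with IgG and 19.5 ± 1.02 FPKM with anti–VEGF-B (SD, n = 3 each), with a log2 fold change of -0.42 (limma, standard error 0.115, 95% interval -0.68 to -0.16, adjusted p = 0.0262) and of -0.27 relative to all genes. Leaving out anti–VEGF-B replicate 1 ended this call (adjusted p = 0.0622 from limma), as did leaving out replicate 3 of the same group (0.0863) or, of the IgG group, replicate 2 (0.0766) or 3 (0.0651). It was also lost after quantile normalization (log2 fold change -0.34, adjusted p = 0.0546 from limma), after median centring (-0.22, 0.111), when scaled to Actb (-0.36, 0.0652) and with no moderation (0.123). After cyclic loess the call was kept (log2 fold change -0.35, adjusted p = 0.0429 from limma). Over the alternatives the adjusted p of Cdk6 ran from 0.0105 to 0.123. The long noncoding RNA genes Gm29868 and Gm36470 lie over 19218 and 2075 bases of the Cdk6 locus in RefSeq.

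Cdk4 (chromosome 10, 127063534 to 127067920, plus strand), which shares the D-type cyclins with Cdk6, did not pass. Its values were 20.9, 17.9 and 14.4 FPKM with IgG and 15.3, 14.2 and 13.2 FPKM with anti–VEGF-B. IgG replicate 1, the lowest IgG library for Cdk6, was the highest of all for Cdk4, and IgG replicate 3 fell among the anti–VEGF-B libraries. The log2 fold change was -0.28 (95% interval -0.57 to 0.00099, adjusted p = 0.117 from limma), -0.13 relative to all genes. When IgG replicate 3 was left out it was -0.42 and passed (limma, adjusted p = 0.0339, the lowest of the alternatives, which reached 0.667). The listed Cdk4 locus shares 634 bases with the RefSeq gene Tspan31, which was at 7.42 to 15.2 FPKM, so that reads in this stretch are uncertain. The ratio of Cdk6 to Cdk4 was 1.06, 1.71 and 1.89 in the IgG replicates and 1.27, 1.44 and 1.40 in the anti–VEGF-B replicates. These ratios overlapped (difference of log2 ratios -0.14, two-sided exact permutation test, p = 0.7, adjusted p = 0.8).

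Cdk2 (chromosome 10, 128697939 to 128705031, minus strand), the kinase of cyclin E and cyclin A, was low throughout. It had 1.94, 3.01 and 1.88 FPKM with IgG and 1.49, 2.50 and 1.69 FPKM with anti–VEGF-B, with replicate 2 the highest in both groups. The groups overlapped, and the log2 fold change was -0.18 (95% interval -0.56 to 0.20, adjusted p = 0.437 from limma), -0.026 relative to all genes, and median centring made it 0.023. RefSeq places Cdk2 wholly within the span of the gene Pmel, for which no value was analysed here.

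The inhibitor gene Cdkn1a (chromosome 17, 29090979 to 29100722, plus strand), which encodes p21, was by far the most abundant of the 9 and ranked 92nd by mean among all genes listed in the IgG libraries. Its values were 539, 516 and 491 FPKM with IgG and 482, 464 and 427 FPKM with anti–VEGF-B. Every anti–VEGF-B library lay under every IgG library, with means of 458 ± 27.8 and 516 ± 23.9 FPKM (SD, n = 3 each). Cdkn1a was nonetheless not called (log2 fold change -0.17, 95% interval -0.35 to 0.0044, adjusted p = 0.123 from limma). Relative to all genes the difference was -0.021. The outcome changed with the scaling and with the replicate block, under which it passed (limma, adjusted p = 0.0491). With other scalings, its log2 fold change was -0.28 after quantile normalization (adjusted p = 0.0231 from limma) and -0.27 after cyclic loess (0.0286), but 0.028 after median centring (0.867), and these span the range over the alternatives.

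Cdkn1b (chromosome 6, 134920401 to 134925513, plus strand), which encodes p27, also stayed abundant. It was at 46.9, 52.98 and 54.6 FPKM with IgG and at 51.3, 42.8 and 45.3 FPKM with anti–VEGF-B. The groups overlapped, since IgG replicate 1 lay under anti–VEGF-B replicate 1. The log2 fold change was -0.15 (95% interval -0.36 to 0.062, adjusted p = 0.247 from limma), 0.0055 relative to all genes. Its ratio to Cdk2, the kinase it inhibits, was 24.2, 17.6 and 29.0 with IgG and 34.4, 17.1 and 26.8 with anti–VEGF-B, which overlapped (difference of log2 ratios 0.12, two-sided exact permutation test, p = 0.8, adjusted p = 0.8). Cdkn1a had 11.5, 9.74 and 8.99 times the FPKM of Cdkn1b with IgG and 9.39, 10.9 and 9.42 times with anti–VEGF-B (difference of log2 ratios -0.024, two-sided exact permutation test, p = 0.8, adjusted p = 0.8). Neither ratio thus separated the treatments.

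Cdkn2c (chromosome 4, 109660876 to 109667189, minus strand), which encodes p18, was the only 1 of the 9 with a log2 fold change above 0, and it was the lowest in level. It stood at 1.03, 0.940 and 0.854 FPKM with IgG and at 1.296, 1.16 and 1.18 FPKM with anti–VEGF-B, and the groups did not overlap. The mean was 0.941 ± 0.0872 FPKM with IgG and 1.21 ± 0.0738 FPKM with anti–VEGF-B (SD, n = 3 each), so anti–VEGF-B was at 129% of IgG. The log2 fold change was 0.19 (limma, standard error 0.0957, 95% interval -0.027 to 0.40, adjusted p = 0.159) and 0.34 relative to all genes. With a mean under 1 FPKM in the IgG group, Cdkn2c was tested only because of the group in which it was higher, which bears on every test of it given here. It passed after quantile normalization (0.40, adjusted p = 0.0209 from limma), median centring (0.39, 0.0221) and cyclic loess (0.42, 0.0208), but not when scaled to Actb (0.22, 0.149). Over the alternatives the adjusted p ran from 0.0208 to 0.351, and the log2 fold change was above 0 in each in which Cdkn2c was tested. At such a level the pseudocount of 1 weighs heavily: with 0.1 in its place, the log2 fold change was 0.34 (adjusted p = 0.165 from limma). The ratio of Cdkn2c to Cdk6, one of the kinases its product binds, was 0.0466, 0.0307 and 0.0313 with IgG and 0.0664, 0.0566 and 0.0638 with anti–VEGF-B. This ratio was higher in every anti–VEGF-B library (difference of log2 ratios 0.81, two-sided exact permutation test, p = 0.1, adjusted p = 0.25). With a pseudocount of 1 in both genes the difference was 0.61.

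**Figure D3:**
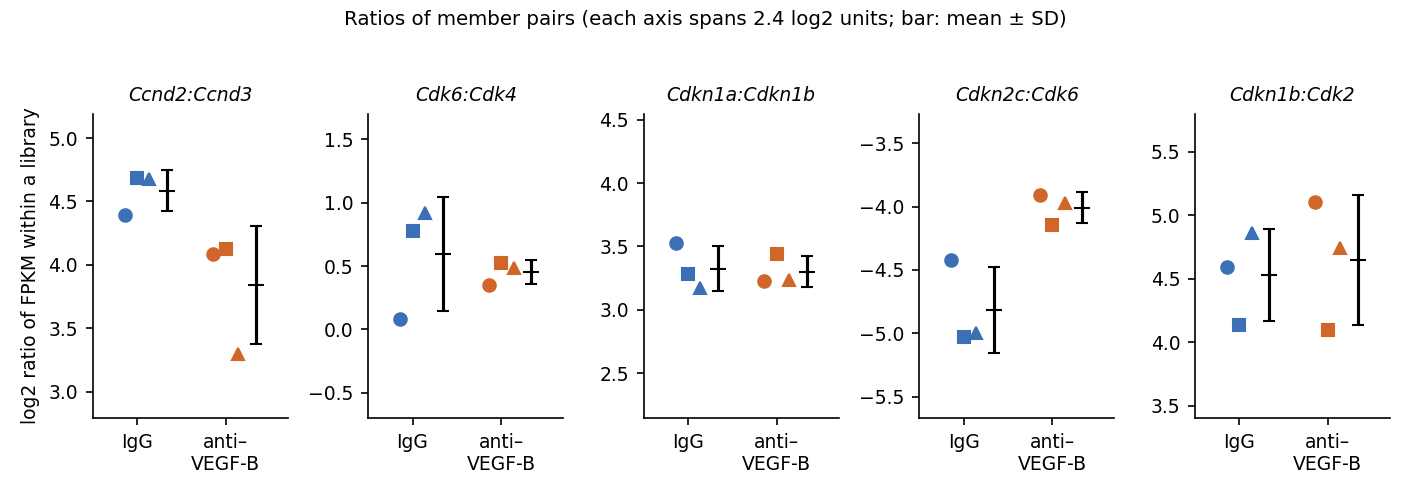
Log2 ratio of FPKM within each library (vertical axes, each spanning 2.4 log2 units) for 5 pairs of the genes, with circles, squares and triangles for replicates 1, 2 and 3 and bars for the mean ± SD. The ratio of Ccnd2 to Ccnd3 was lower and that of Cdkn2c to Cdk6 higher in each anti–VEGF-B library, and the other 3 ratios overlapped.

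Rb1 (chromosome 14, 73183673 to 73325822, minus strand), which encodes the retinoblastoma protein, was at 12.3, 14.6 and 14.6 FPKM with IgG and at 12.4, 11.9 and 12.6 FPKM with anti–VEGF-B. IgG replicate 1 lay among the anti–VEGF-B libraries, and the log2 fold change was -0.15 (95% interval -0.36 to 0.056, adjusted p = 0.231 from limma), 0.0016 relative to all genes, and median centring made it 0.050. The Rb1 locus shares 2468 bases with the RefSeq gene Lpar6, 383 with Rcbtb2, which was at 0.545 to 0.692 FPKM, and 89 with Mir687.

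Across the 9 genes, the groups lay apart for 4, with 3 lower and 1 higher in anti–VEGF-B, where 49.0% of all genes tested lay apart, 38.5% as lower and 10.5% as higher. In the IgG libraries the order by mean FPKM was Cdkn1a, Ccnd2, Cdkn1b, Cdk6, Cdk4, Rb1, Ccnd3, Cdk2 and Cdkn2c. Among neighbours in this order, only Cdk4 and Rb1 had overlapping ranges. In the anti–VEGF-B libraries Ccnd2 (44.4 FPKM) stood under Cdkn1b (46.5 FPKM), whose range it overlapped, and the other 7 genes kept their places. The change of order thus came from Ccnd2, which with IgG lay above Cdkn1b in each of the 3 libraries. IgG replicate 2 had the highest value of all 6 libraries for 4 of the 9 genes, namely Ccnd2, Ccnd3, Cdk6 and Cdk2, and anti–VEGF-B replicate 3 the lowest for 4, namely Ccnd2, Cdk4, Cdk6 and Cdkn1a.

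**Figure D4:**
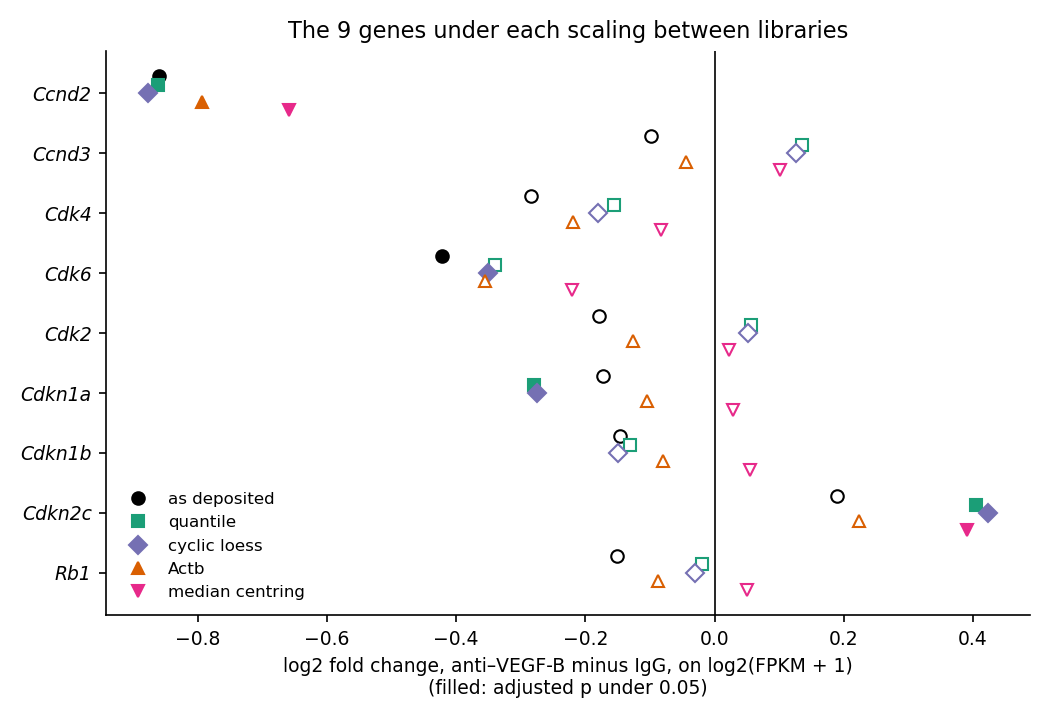
Log2 fold change (anti–VEGF-B minus IgG on log2(FPKM + 1), horizontal axis) of the 9 genes from the values as deposited and under 4 scalings between libraries, with filled symbols for an adjusted p under 0.05 in limma. Ccnd2 was called under all 5, Cdkn2c above 0 under all 5 and called in 3, and Ccnd3 and Cdk2 changed sign between scalings, as did Cdkn1a, Cdkn1b and Rb1 under median centring.

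The other genes of the G1 to S step were taken from a list of 35, of which 31 were in the table and 25 were tested. Among these, 11 were called lower and 1 higher, where 23.8% and 4.87% of all genes were. The median log2 fold change was -0.31, beside -0.15 for all genes. The genes that fell included Ccne1 (log2 fold change -0.51, adjusted p = 0.0123 from limma), which encodes cyclin E1, and Ccna2 (-0.56, 0.0129), which encodes cyclin A2, both partners of Cdk2. Ccna2 averaged 1.41 FPKM with IgG and 0.633 FPKM with anti–VEGF-B, so that it reached the minimum of 1 FPKM only through the group in which it was higher, as did Cdkn1c, which was not called. Rbl1 (-0.61, adjusted p = 0.0126 from limma) and Rbl2 (-0.61, 0.0115), the relatives of Rb1, fell to 49.7% and 58.7% of IgG, whereas Rb1 itself was at 89.1%. Tfdp1 (-0.69, adjusted p = 0.0136 from limma) encodes a partner of E2F proteins, and Ccnh (-0.47, 0.0115) a cyclin of the complex that activates CDKs. The other genes called lower, named after their values were seen, were Cks1b (-0.73), Cdk8 (-0.38), Cdk7 (-0.40), Tfdp2 (-0.38) and E2f2 (-0.47). Of these, Cdk8, Cdk7, Tfdp2 and E2f2 lost their calls after quantile normalization, median centring and cyclic loess, and Cks1b after quantile normalization. When anti–VEGF-B replicate 3 was left out, all 5 lost their calls, as did Rbl1 and Ccna2. Tfdp2 lost its call in 11 of 15 alternatives, with adjusted p up to 0.404 in limma. Ccnh lost its call after quantile normalization and cyclic loess.

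The gene that rose was Ccne2, which encodes cyclin E2, so that the genes of the E-type cyclins went in opposite directions. Ccne2 was at 10.2, 8.78 and 11.8 FPKM with IgG and at 15.2, 12.5 and 14.0 FPKM with anti–VEGF-B, and Ccne1 at 2.92, 3.10 and 2.68 and at 1.73, 1.99 and 1.51. Neither gene had overlapping groups, and neither changed sign under any alternative. The log2 fold change of Ccne2 was 0.41 (adjusted p = 0.0316 from limma), and it passed under every scaling. Its call was lost when anti–VEGF-B replicate 1 (adjusted p = 0.0969 from limma) or 3 (0.0876) or IgG replicate 1 (0.0611) or 2 (0.0906) was left out, and with no moderation, against 0.0160 to 0.125 over the alternatives. Ccne1 lost its call after quantile normalization or cyclic loess, with no moderation, or when anti–VEGF-B replicate 3 was left out, with an adjusted p from 0.0126 to 0.0699 over the alternatives in limma. Cdkn2d, an inhibitor gene of the same family as Cdkn2c, averaged 47.2 ± 2.24 FPKM in IgG and 52.01 ± 1.21 FPKM in anti–VEGF-B libraries, with groups that did not overlap (limma, log2 fold change 0.14, adjusted p = 0.159). E2f1, which encodes an E2F factor, averaged 2.17 FPKM in IgG and 2.18 FPKM in anti–VEGF-B libraries (limma, log2 fold change 0.0060, adjusted p = 0.967). Skp2, which directs the p27 protein to destruction, had a mean under 1 FPKM (0.515 in IgG and 0.388 in anti–VEGF-B libraries) and was not tested. When anti–VEGF-B replicate 3 was left out, the genes of this list called lower numbered 3, and the share of all genes called lower dropped to 7.88%. They numbered 4 (with 2 higher) after quantile normalization, 7 (with 3 higher) after median centring and 5 (with 2 higher) after cyclic loess. Of all genes, 10.4%, 9.15% and 10.6% were then lower and 9.98%, 15.5% and 9.66% higher.

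Genes that E2F factors switch on, which are the targets kept in check by the retinoblastoma protein, were described from a list of 26, of which 23 were tested. Of these, 14 were called lower and none higher, where 23.8% and 4.87% of all genes were, and the median log2 fold change was -0.39, beside -0.15 for all genes. Cdc6 and Mybl2, neither of them called, reached the minimum of 1 FPKM only through the IgG group. At an unadjusted p under 0.05 in limma, 17 were lower and 0 higher. The share of all genes at that limit was not counted but was at least 23.8% lower and 4.87% higher. The lowest p belonged to Mcm3 (log2 fold change -0.93, adjusted p = 0.00491 from limma), Uhrf1 (-0.82, 0.00756), Mcm2 (-0.63, 0.00768), Cdt1 (-0.76, 0.00843), Mcm6 (-0.39, 0.0116) and Cdc45 (-0.74, 0.0120). Mcm2, Mcm3 and Mcm6 encode subunits of the helicase that opens DNA for replication, and Cdt1 and Cdc45 encode factors that load and activate it. The count called lower was 6 when anti–VEGF-B replicate 3 was left out, 7 after quantile normalization, 8 (with 1 higher) after median centring and 8 after cyclic loess, beside the same shares of all genes as above. Mcm6 lost its call after median centring (log2 fold change -0.19, adjusted p = 0.0919 from limma) and when scaled to Actb (0.0558), with 0.0115 to 0.0919 over the alternatives. None of the 6 passed with no moderation, where 0.0681% of all genes were called lower.

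**Figure D5:**
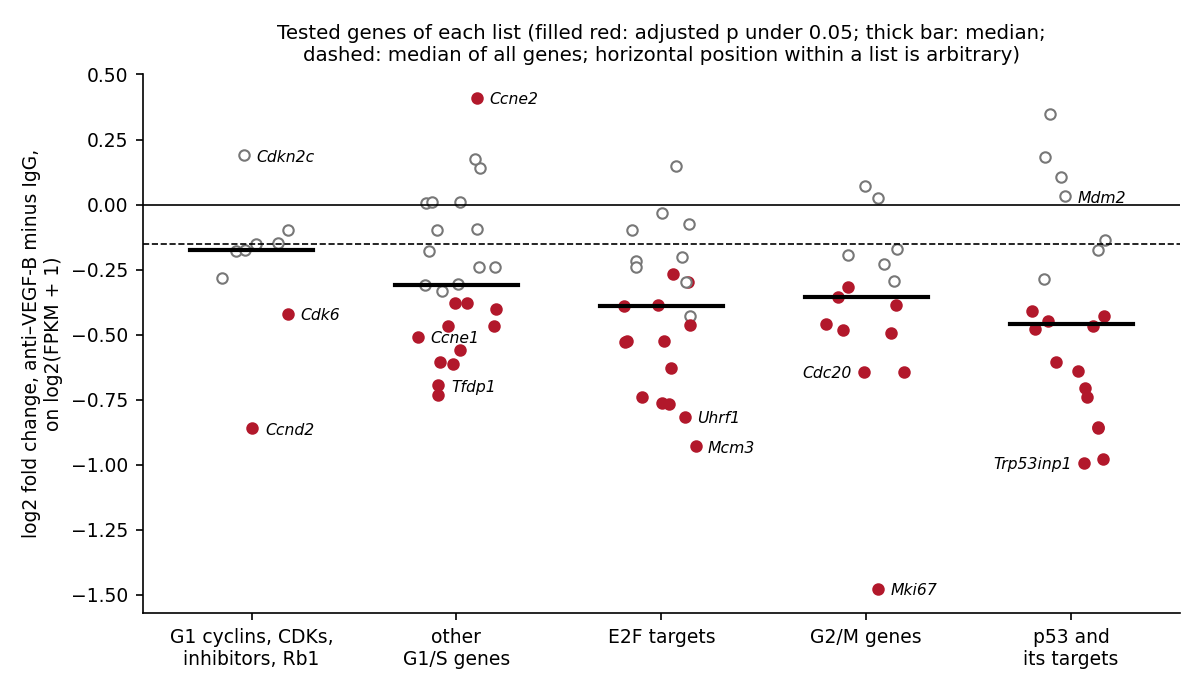
Log2 fold change (anti–VEGF-B minus IgG on log2(FPKM + 1), vertical axis) of each tested gene in 5 lists, filled red where the adjusted p was under 0.05 in limma, with a thick bar at the median of each list and a dashed line at that of all genes (-0.15). The median was -0.17 for the 9 genes, -0.31 for the other G1/S genes and -0.39 for the E2F targets, and Ccne2 was the only gene of these lists called higher.

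The genes whose log2 values ran most like those of Ccnd2, the gene with the lowest p of the 9, over the 6 libraries were Top1 (Pearson's r = 0.9998), N4bp2l1 (0.9989) and Armc8 (0.9986), across libraries that share the contrast between treatments. Of 8807 other genes, 1047 had an r over 0.95 with Ccnd2. For Cdkn2c, with the largest positive log2 fold change, they were Kdelr2, Eif4ebp1 and Rgs10 (r of about 0.98), and 27 genes had an r over 0.95. These correlations describe the profiles over 6 points and rest largely on the difference between the groups.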

How the data were processed

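RNA-Seq was made from CD4+ T cells in 3 anti–VEGF-B and 3 IgG libraries. The authors aligned reads to GRCm38 with hisat2, used StringTie and Ballgown, and deposited FPKM per gene and library for protein-coding genes, with no step between libraries and no filter stated. The file is named as raw data, but its values are not whole numbers, so no count model was run. Whole reads could not be recovered from low values (at most 0.935% of genes under 0.3 FPKM shared a ratio to 4 decimals), so the precision from counting is unknown and no interval for counting error is given. No column of values per sample was left unmapped.

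Genes averaging 1 FPKM or more, 8816 in number, were fitted as log2(FPKM + 1) over all 6 libraries in limma 3.58.1 under R 4.3.3 (empirical Bayes with trend, no covariate), and p-values were adjusted over all of these genes. Ratios between genes within a library were compared with exact permutation tests. The method was tested on simulated data. The 9 genes and the lists were chosen with earlier results of these data known. Named were all 9 genes, up to 6 called genes with the lowest p per list, and Ccnd1, Ccne1, Ccne2, Cdkn2d, Rbl1, Rbl2, E2f1, Skp2, Trp53, Mdm2 and Mki67, and for the gene of the 9 with the lowest p and that with the largest rise the 3 genes of highest correlation. Cdkn1c, Cdc6, Mybl2 and Birc5, which met the filter through 1 group only, were named after their values were seen, as were Il2ra, Cd3e and Cd5. Loci are those of the deposited table, and overlapping genes come from RefSeq (GRCm38.p6), in which all 9 symbols matched. Of the marker lists for other cells, 5 of 6 B cell, 5 of 9 myeloid and 4 of 5 endothelial genes and those for NK and erythroid cells were not analysed here. Alternatives changed the scaling, the filter, the pseudocount, the moderation, the call rule, the replicate block and the libraries included.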

Additional observations from a re-analysis of the deposited data

How the results depend on the processing

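With no moderation of the variance, limma called 0 of the 9 genes lower, 0 other G1/S genes lower and 0 higher, and 0 E2F targets lower. Hardly any gene was called in this setting, 0.0681% of all genes lower and 0.0681% higher, so these counts say little about the lists. At an unadjusted p under 0.05 they numbered 2, 11, 3 and 16 (with 1 of the 9 genes higher). The share of all genes at that limit was not counted with no moderation, so these counts do not show whether the lists differed from all genes. Quantile normalization gave 2 lower and 1 higher of the 9 genes, 4 other G1/S genes lower and 2 higher, and 7 E2F targets lower. In that setting 10.4% of all genes were lower and 9.98% higher. Median centring gave 1 lower and 1 higher of the 9 genes, with a median of 0.028, 7 other G1/S genes lower and 3 higher, and 8 E2F targets lower and 1 higher. Of all genes, 9.15% were then lower and 15.5% higher. Cyclic loess gave 3 lower and 1 higher of the 9 genes, 5 other G1/S genes lower and 2 higher, and 8 E2F targets lower. With it 10.6% of all genes were lower and 9.66% higher. Scaling to Actb gave 1 of the 9 genes lower and 0 higher, beside 14.8% of all genes lower and 4.14% higher. With a mean of at least 5 FPKM, at which fewer genes are tested, 3 other G1/S genes and 6 E2F targets were lower. Of all genes tested there, 20.1% were lower. How many genes of each list were tested there was not counted, so these counts show neither a larger nor a smaller share. When an unadjusted p under 0.05 was joined with a log2 fold change beyond 0.5 in either direction, 1 of the 9 genes, 6 other G1/S genes and 9 E2F targets were lower and 0 other G1/S genes higher. Of all genes, 11.3% were lower and 1.40% higher by this rule. The cause of these changes was otherwise not tested.

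Without each library in turn, 1 to 2 of the 9 genes were called lower (1 without anti–VEGF-B replicate 1, anti–VEGF-B replicate 3 or IgG replicate 2), 3 to 10 other G1/S genes lower and 0 to 1 higher, and 6 to 13 E2F targets lower. Of all genes, 7.88% (without anti–VEGF-B replicate 3) to 23.5% (without IgG replicate 1) were lower in these fits, and 1.86% to 4.49% higher. The difference of log2 ratios then ran from -0.89 to -0.48 for Ccnd2 to Ccnd3 and from 0.70 to 1.00 for Cdkn2c to Cdk6, and changed sign for Cdk6 to Cdk4 (-0.39 to 0.025), Cdkn1a to Cdkn1b (-0.10 to 0.075) and Cdkn1b to Cdk2 (-0.11 to 0.39). Over all named genes and alternatives, 564 values stayed on their side of the threshold, 109 lost their call, 10 gained one and 0 called values changed sign.

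Whether equal replicate numbers mark a shared mouse or batch is not given by the labels. Deviations from the group means correlated at -0.030, 0.11 and 0.089 for replicates 1, 2 and 3. The value for replicate 2 was the highest of any pair, but not every library correlated best with its own number. With 3 libraries in each group, such correlations cannot decide whether the libraries were paired. With the replicate block 3 of the 9 genes were lower, Cdkn1a with an adjusted p of 0.0491 from limma in addition, and 2578 genes in all were called against 2528. The exact test of a ratio within 3 pairs cannot go below 0.25. FPKM carry no depth, so that what counting error limits at low levels, as for Cdkn2c, is unknown.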

Other observations

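Cdkn1a is a classical target of p53, and 20 genes of p53 and its targets were tested beside it. Of these, 13 were called lower with anti–VEGF-B and none higher, with a median log2 fold change of -0.46, beside 23.8% and 4.87% of all genes. At an unadjusted p under 0.05 in limma, 14 were lower and 1 was higher, Gadd45a (log2 fold change 0.35), named after its value was seen. The share of all genes at that limit was not counted but was at least 23.8% lower and 4.87% higher. Trp53, which encodes p53, averaged 20.2 ± 1.62 FPKM in IgG and 14.8 ± 1.15 FPKM in anti–VEGF-B libraries (SD, n = 3 each; limma, log2 fold change -0.43, adjusted p = 0.0128), and lost its call after median centring, when scaled to Actb, with no moderation and without anti–VEGF-B replicate 3, with an adjusted p up to 0.135 over the alternatives. The lowest p belonged to Plk2 (log2 fold change -0.74), Pmaip1 (-0.98), Trp53inp1 (-0.99), Tnfrsf10b (-0.85), Ccng1 (-0.64) and Sesn2 (-0.70), with adjusted p from 0.00469 to 0.00711 in limma. Each of these lost its call with no moderation (adjusted p from 0.0695 to 0.0775 in limma), where 0.0681% of all genes were called lower, and kept it in the other alternatives. How many of the 13 stayed called under other scalings was not counted. Mdm2, which encodes the ligase that destroys p53, averaged 75.2 FPKM in IgG and 77.0 FPKM in anti–VEGF-B libraries (limma, log2 fold change 0.032, adjusted p = 0.778). Neither Cdkn1a, at -0.17, nor Mdm2 thus passed.

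Of 15 tested genes of G2 and mitosis, 9 were called lower and none higher, with a median of -0.36, where 23.8% and 4.87% of all genes were called and the median was -0.15. At an unadjusted p under 0.05 in limma the counts were 10 and 0. The share of all genes at that limit was not counted but was at least 23.8% lower and 4.87% higher. Cenpe and Birc5, both called lower, reached the minimum of 1 FPKM only through the IgG group. Mki67, the gene of the proliferation marker Ki-67, was at 6.40, 9.54 and 7.13 FPKM with IgG and at 1.95, 2.28 and 2.04 FPKM with anti–VEGF-B, which is 27.2% of the IgG mean (log2 fold change -1.48, adjusted p = 0.00279 from limma). Cdc20 (-0.64), Kif11 (-0.64), Cenpe (-0.49), Top2a (-0.48) and Ccnb2 (-0.39), which act in chromosome separation and the entry into mitosis, also fell. Top2a and Ccnb2 lost their calls after quantile normalization, median centring or cyclic loess, Cenpe after cyclic loess, and Ccnb2 also when scaled to Actb or without anti–VEGF-B replicate 1 or 3 or IgG replicate 1 or 2. With no moderation, where 0.0681% of all genes were called lower, none of these genes passed, Mki67 included. The adjusted p of Mki67 ran from 0.00101 to 0.0693 over the alternatives in limma.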
